A study of Mus musculus with 163 samples.

Results

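Growing oocytes (GROs) that had differentiated from embryonic gonads in culture were compared with GROs taken from ovaries in vivo, gene by gene, in 48 of the 163 single mouse oocytes of the series. All 24 oocytes whose label names the E12.5 embryonic gonad as their source and all 24 labelled as in vivo-derived GROs entered, with no oocyte left out. For the gonad-derived GROs, every cell of dissociated E12.5 gonads, germ cells and somatic cells together, had been re-aggregated in medium with retinoic acid into reconstituted ovaries, which were then kept on membranes for in vitro differentiation (IVD) with a transient block of the estrogen receptor by fulvestrant. They therefore entered culture as primordial germ cells and made the whole step from primordial germ cell to growing oocyte outside the body, and the comparison was named IVD@GRO in the study. The in vivo GROs carried no culture or treatment, and no transgene or deletion is named for either group. The study took E12.5 female gonads from outbred Swiss Webster mice for the somatic cells of its iPSC-derived aggregates, and the strain is not stated anew for the gonad-derived ones. The strain and age of the mice that gave the in vivo GROs are not given in the sources used here, so strain and culture cannot be told apart. Whether the gonads of 1 litter or several were pooled is likewise not given.

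A mouse oocyte enters meiosis in the fetal ovary, arrests in prophase and is enclosed by flat granulosa cells as a primordial follicle. Once recruited, it grows while granulosa cells feed it through gap junctions, and it builds the zona pellucida and a store of maternal transcripts that the early embryo will use. In reconstituted ovaries this recruitment and early growth take place within an aggregate on a membrane, without a blood supply.

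Somatic cells and the zona pellucida had been removed and each oocyte profiled alone by Smart-seq2, a full-length protocol for polyadenylated RNA. Values are counts per 1000000 reads (CPM), pooled over the oocytes of a group unless a range over oocytes is given. Totals lay between 4.57 and 8.70 M reads (M, 1000000 reads) in gonad-derived and between 5.55 and 7.54 M in in vivo GROs, and 3 reads over a whole group were worth 0.0191 and 0.0185 CPM. Because the labels name no animal, embryo or culture behind an oocyte, each group counted as 1 sample. The differences below have no replicate check and carry no test, and the 95% intervals of pooled values (exact Poisson) cover counting error only, since reads were amplified and no molecular identifiers were used.

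Both groups carried the markers of oocytes. The 13 measured markers, among them the zona pellucida genes Zp1, Zp2 and Zp3, the growth factors Gdf9 and Bmp15 and the germ cell helicase Ddx4, summed to between 42668 and 59147 CPM in gonad-derived GROs and to between 44687 and 66014 CPM in in vivo GROs. Of these 12 lay within 2-fold, and the exception was Sohlh1, a transcription factor of early oocytes, with 6.59 CPM against 18.3 CPM. Markers of granulosa cells summed to between 28.7 and 105 CPM in gonad-derived and between 18.7 and 90.5 CPM in in vivo GROs, carried by Nr5a2, Cyp19a1 and Kitl. Cyp19a1, the aromatase gene, was higher in gonad-derived GROs, at 19.1 against 8.87 CPM, and Gja1, a connexin gene, was lower, at 0.420 against 1.61 CPM. Amh, the hormone that defines granulosa cells of growing follicles, was at 0.0637 and 0.402 CPM, and Inhbb was at 0 and 0.148 CPM. Markers of theca and stroma summed to between 2.18 and 8.98 CPM against 1.56 to 18.6 CPM, with Cyp11a1, which starts steroid synthesis, at 1.64 against 0.389 CPM and Hsd3b1, which acts after it, at 1.15 against 2.97 CPM, a ratio of -1.07 that came to -0.35 without in vivo GROs 17 to 24. Markers of blood and endothelium summed to between 62.7 and 166 CPM against 3.80 to 294 CPM, carried by Pecam1 (101 against 67.0 CPM) and Tek (17.2 against 21.7 CPM), while Hbb-bs, a haemoglobin gene, was at 0 in both groups and the leukocyte marker Ptprc at 0.0127 and 0 CPM. Markers of the fetal gonad are given with the developmental genes.

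The in vivo GROs numbered 17 to 24 stood apart from the other 16. In 678 of the 13422 genes that entered, all 8 of them lay above the other 16, and in 160 genes all 8 lay below. No gene separated the first, the second or the third 8 oocytes of the gonad-derived GROs in this way, nor the first or the second 8 of the in vivo GROs. Pcbp2, an RNA-binding protein gene, ran from 38.5 to 93.5 CPM (median 57.3) in in vivo GROs 1 to 16 and from 228 to 447 CPM (median 386) in GROs 17 to 24. Hmga2, a chromatin architecture gene, ran from 9.62 to 36 CPM and from 48.4 to 136 CPM. These examples were chosen after their values were seen. The genes that were higher in the 8 oocytes were long, with a median deposited exonic length of 4670.5 bases against 2795.5 bases over all genes. For the 160 genes that were lower in them the median was 3123.5 bases. Totals of the 8 oocytes, between 5.84 and 7.53 M reads, were like those of the rest. The labels give no difference between these oocytes and the other 16, and what sets them apart was not tested. Counts of higher and lower genes that moved without them are therefore given both ways, and so are single values where the call changed. In vivo GROs 1 to 16 alone had summed marker levels of 32.4 to 64.6 CPM for granulosa cells, 1.56 to 8.82 CPM for theca and stroma and 57.0 to 294 CPM for blood and endothelium.

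**Figure D1:**
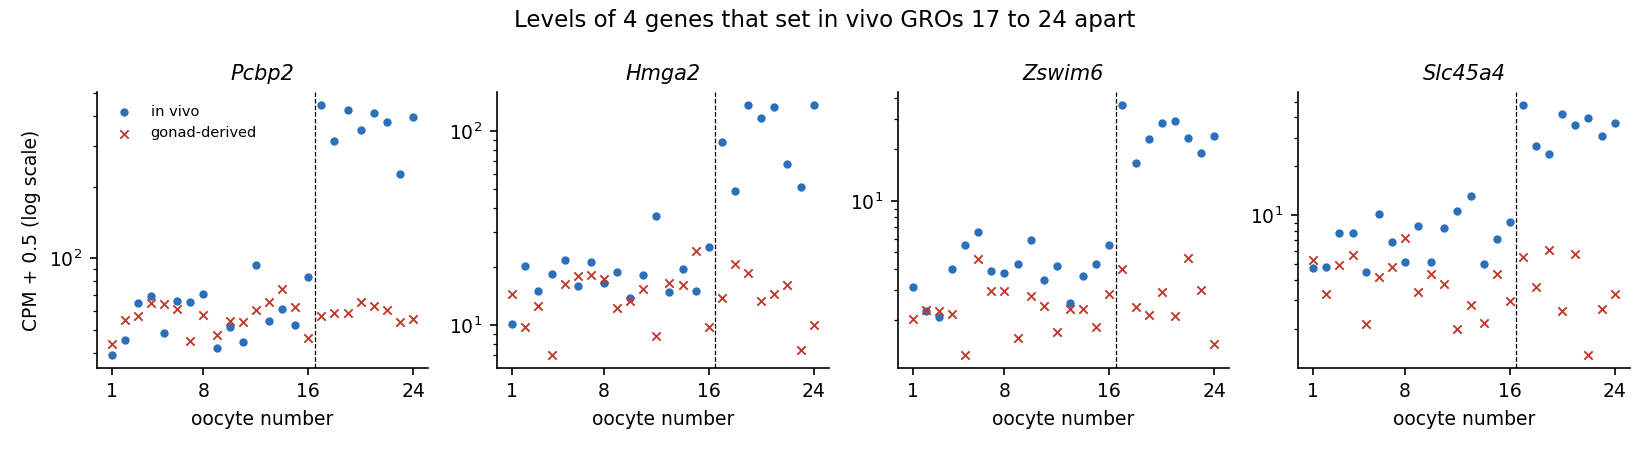
CPM + 0.5 (log scale) of Pcbp2, Hmga2, Zswim6 and Slc45a4 in each GRO, plotted against the oocyte number of its label, with circles for 24 in vivo and crosses for 24 gonad-derived GROs and a dashed line between numbers 16 and 17. In vivo GROs 17 to 24 lie above in vivo GROs 1 to 16 in all 4 genes, and gonad-derived GROs of those numbers do not stand apart.

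Across the 13422 genes, the median ratio of gonad-derived over in vivo GROs was -0.03 on the log2 scale with 0.5 CPM added to both pooled values, which understates differences of genes of low level. At least 4-fold higher in gonad-derived GROs were 85 genes (0.633% of all tested), and 7 genes were at least 4-fold lower (0.0522%). At 2-fold the numbers were 561 higher (4.18%) and 362 lower (2.70%). The numbers at 4-fold moved with the amount added, from 176 higher and 34 lower with 0.1 CPM to 35 and 1 with 2 CPM, and the coefficient of an edgeR fit gave 268 and 66. Without in vivo GROs 17 to 24, 97 genes were 4-fold higher and 9 lower, and 84 and 4 of these were called with them as well. At 2-fold this left 596 higher and 193 lower genes, so that 213 of the 362 lower calls rested on the 8 oocytes, while 526 of the 561 higher calls were shared. Of the 85 higher genes 0 separated the 8 oocytes from the other 16, against 678 above and 160 below among the 13422. The median in vivo level of the 85 was 1.42 CPM. Genes near 0 in vivo can hardly separate the 8 oocytes, so this 0 says little. The values just inside the 4-fold rule were 2.01 for Lyn and 2.00 for Elf3, and those just outside were 2.00 for Cxcr3 and 1.98 for Prxl2a.

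**Figure D2:**
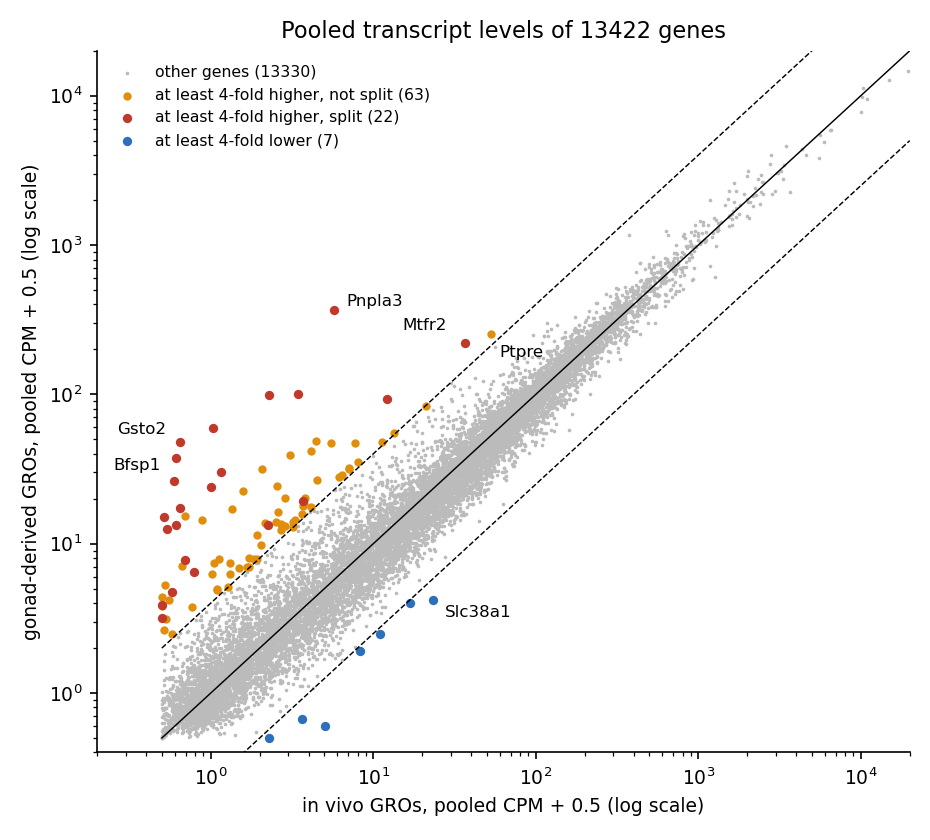
Pooled CPM + 0.5 of 13422 genes in 24 in vivo GROs (horizontal, log scale) and 24 gonad-derived GROs (vertical, log scale), with 1 point per gene, a solid line of equal levels and dashed lines at 4-fold. The 85 higher genes lie mostly at low in vivo levels, with a median of 1.42 CPM there, and 7 genes lie beneath the lower dashed line.

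The 85 higher genes started from low levels in vivo. Their median level was 13.9 CPM in the gonad-derived and 1.42 CPM in the in vivo GROs. Of the 85, 30 were at least 8-fold, 15 at least 16-fold and 6 at least 32-fold higher. In 62 of them at least 3 in vivo GROs were above 1 CPM, while 23 passed the filter on low values only through cultured oocytes, which the choice of members favours. The higher level was seldom shared by every gonad-derived oocyte. In the median gene of the 85, 17 of 24 gonad-derived GROs lay above every in vivo GRO, and in 24 genes at least 20 did so. By medians over oocytes in place of pooled counts, 77 of the 85 stayed past 2-fold and 69 past 4-fold.

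The widest differences came from genes whose gonad-derived GROs fell into a high and a low set with an empty gap between them. A gene was called split where neighbouring oocytes, ordered by level, left a gap of at least 4-fold with at least 3 oocytes on each side. In gonad-derived GROs 23 genes were split (0.171% of all tested), and 22 of them were among the 85. In in vivo GROs the rule found 1 gene, Sohlh1, and in iPSC-derived GROs 3 genes, none of the 23. In all 23 genes every oocyte of the high set lay above every in vivo GRO. Draxin and Mamdc2 had the narrowest gaps inside the rule, 2.1 and 2.03 on the log2 scale, and Extl1 and Nrcam, at 2.00 and 1.91, fell just outside. Split genes that the naming rule did not reach, such as Bfsp1, were named after their values were seen.

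Gsto2, a glutathione transferase of the omega class that reduces dehydroascorbate, had the highest ratio of all genes. It lay between 0.174 and 0.566 CPM in gonad-derived GROs 10, 19 and 20 and between 21.3 and 75.3 CPM in the other 21, with no in vivo GRO above 0.685 CPM. The pooled level was 47.4 CPM (interval 46.3 to 48.5) against 0.142 CPM (0.0901 to 0.213), a ratio of 6.22. Cfap58, a cilium and flagellum gene that starts 0.0723 Mb further along chromosome 19, was low in the same 3 oocytes, at 3.31 to 4.66 CPM, and lay between 92.1 and 147 CPM in the other 21, against 1.19 to 4.64 CPM in vivo. Gsto1, which ends 648 bases before Gsto2, was at 4.83 and 5.20 CPM in the 2 groups. Itprip, between Gsto2 and Cfap58, was at 90.3 and 65.8 CPM. The high level was thus shared by Gsto2 and Cfap58 in each oocyte and did not extend to Gsto1 and Itprip.

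Fmo6, a flavin monooxygenase gene, and Alyref2, a copy of the mRNA export factor gene Alyref, lie 8.59 Mb apart on chromosome 1 and were high in the same 17 gonad-derived GROs. Fmo6 ran from 31.4 to 133 CPM in these 17 and from 0.292 to 6.02 CPM in GROs 3, 4, 6, 16, 19, 20 and 23, against 0 to 3.42 CPM in vivo. Alyref2 ran from 98.6 to 158 CPM and from 8.44 to 19.9 CPM, against 4.92 to 22.4 CPM in vivo. Reads of Alyref2 are uncertain, since it resembles Alyref closely.

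Pnpla3, a lipase and acyltransferase of lipid droplets on chromosome 15, ran from 459 to 670 CPM in 16 gonad-derived GROs and from 3.06 to 9.03 CPM in the other 8, with 3.33 to 7.81 CPM in vivo. Gpat3, which attaches the first acyl chain in triglyceride synthesis, ran from 41.2 to 197 CPM in 20 and from 0.6 to 4.95 CPM in 4 gonad-derived GROs, with at most 5.07 CPM in vivo. Thrsp, a regulator of fatty acid synthesis, had no read in any in vivo GRO and lay between 3.82 and 16.0 CPM in 7 gonad-derived GROs, so that its pooled level was at least 181-fold higher, counted against a floor of 3 reads over the group. Pnpla3 is a member of the list of lipid droplet and triglyceride genes, and Gpat3 and Thrsp are not. In that list 20 of 23 measured genes lay within 2-fold, 2 were higher (Pnpla3 and Pnpla5, at 10.9 against 4.76 CPM) and 1 was lower (Scd2, 0.548 against 2.39 CPM), with a median of -0.08 against -0.03 over all genes.

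Promoters of 5 split genes are printed here, because 4 of them belong to the gene pairs that were high in the same oocytes and the fifth, Pnpla3, had the highest pooled level of the split genes. They run from 250 bases before to 50 bases after a transcript start, read 5′ to 3′ on the strand of the gene in RefSeq's GRCm38.p6. For Gsto2, Fmo6 and Pnpla3 that start lies inside the annotated span of the gene and not at its outer end. Capitals mark matches, on either strand, to the motifs searched. These were the GC box, spelt GGGCGG, the TATA box, spelt TATAAA, and the core of homeodomain sites, spelt TAATTG or alternatively TAATTA. The longer ones were the cAMP response element, spelt TGACGTCA, the antioxidant response core, spelt TGACNNNGC, and the amino acid response element, spelt TGATGNAA, and the last was the core of nuclear receptor sites, spelt AGGTCA. Gsto2 is at chr19:47865295-47865594 (+), Cfap58 at chr19:47937462-47937761 (+), Fmo6 at chr1:162937176-162937475 (-), Alyref2 at chr1:171503228-171503527 (+) and Pnpla3 at chr15:84167566-84167865 (+).
Gsto2: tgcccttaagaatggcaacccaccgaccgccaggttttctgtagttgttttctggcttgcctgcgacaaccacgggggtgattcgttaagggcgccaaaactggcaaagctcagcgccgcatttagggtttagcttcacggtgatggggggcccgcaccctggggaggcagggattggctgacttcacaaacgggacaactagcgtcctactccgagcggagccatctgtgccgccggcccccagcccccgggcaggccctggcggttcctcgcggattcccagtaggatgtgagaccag
Cfap58: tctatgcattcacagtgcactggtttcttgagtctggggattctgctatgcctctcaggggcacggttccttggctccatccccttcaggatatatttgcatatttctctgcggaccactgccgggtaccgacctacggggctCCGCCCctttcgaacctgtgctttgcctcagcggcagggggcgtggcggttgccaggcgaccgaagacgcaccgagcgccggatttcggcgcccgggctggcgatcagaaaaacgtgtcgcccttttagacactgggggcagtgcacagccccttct
Fmo6: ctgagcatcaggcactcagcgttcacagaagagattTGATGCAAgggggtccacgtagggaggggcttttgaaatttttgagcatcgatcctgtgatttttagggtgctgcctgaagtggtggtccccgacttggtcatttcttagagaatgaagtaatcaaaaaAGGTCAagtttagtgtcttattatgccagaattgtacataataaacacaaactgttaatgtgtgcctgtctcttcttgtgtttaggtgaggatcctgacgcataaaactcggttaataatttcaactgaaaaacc
Alyref2: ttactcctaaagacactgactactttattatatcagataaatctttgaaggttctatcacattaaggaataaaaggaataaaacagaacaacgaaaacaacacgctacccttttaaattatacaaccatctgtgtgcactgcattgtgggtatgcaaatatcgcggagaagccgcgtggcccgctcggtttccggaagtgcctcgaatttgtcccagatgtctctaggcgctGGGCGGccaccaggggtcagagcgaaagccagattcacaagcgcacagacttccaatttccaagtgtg
Pnpla3: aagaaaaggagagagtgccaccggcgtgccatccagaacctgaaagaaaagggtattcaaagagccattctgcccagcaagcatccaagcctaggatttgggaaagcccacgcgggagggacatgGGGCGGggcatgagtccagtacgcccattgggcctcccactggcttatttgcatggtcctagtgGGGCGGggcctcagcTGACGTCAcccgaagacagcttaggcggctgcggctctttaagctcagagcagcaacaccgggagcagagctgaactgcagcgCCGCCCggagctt
The windows share no single feature. Those of Gsto2, Cfap58 and Pnpla3 are rich in GC, at 61.7%, 60.3% and 59.7%, and those of Fmo6 and Alyref2 are not, at 41.7% and 45.3%. Fmo6 and Alyref2 differ in their matches too, with an amino acid response element and a nuclear receptor core in the former and a GC box in the latter. The Pnpla3 window holds 3 GC boxes and a cAMP response element, a palindrome that matches on both strands, and the Gsto2 window, the first of 2 given for the gene, holds none of the motifs. GC boxes were found in 59.3%, cAMP response elements in 2.98%, amino acid response elements in 2.61% and nuclear receptor cores in 12.6% of the 10575 windows of all tested genes. A match is a description of the letters and no evidence of a bound site.

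Other split genes had other functions. Bfsp1, a filament protein of the eye lens, was at 71.5 to 223 CPM in 8 gonad-derived GROs and at 0 to 0.369 CPM in 16, with at most 1.54 CPM in vivo. Mtfr2, a regulator of mitochondrial fission, was the split gene with the highest level in vivo, 18.2 to 68.4 CPM, and lay at 369 to 515 CPM in 11 and at 16.8 to 55.5 CPM in 13 gonad-derived GROs. Slc39a8, a zinc and manganese importer, lay between 6.11 and 144 CPM in 15 gonad-derived GROs, the widest high set of these genes, and at 0 to 0.3 CPM in 9. Pxdn, a peroxidase that crosslinks collagen IV, was at 22.2 to 51.8 CPM in 17 and at 0 to 0.303 CPM in 7. Arhgef15, an exchange factor for RhoA, was at 13.1 to 32.3 CPM in 16 and without a read in 8. Medians over oocytes hide split genes in which most oocytes were low. For Bfsp1 the ratio was 5.95 pooled and 0.37 by medians, because 16 of 24 oocytes were low. Where most oocytes were high the ratio by medians stayed large, at 5.47 (4.59 pooled) for Pxdn, 5.19 (4.88) for Arhgef15 and 5.01 (5.47) for Slc39a8. Skint5, Skint6, Dcpp2, Defa29 and Nlrp5-ps were split as well, but have near copies in the genome, and their counts are uncertain. The counts of Slc39a8, Gpat3, A930015D03Rik, Prr15l and Draxin may include reads of a gene that overlaps them, since the use of strand is not stated.

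**Figure D3:**
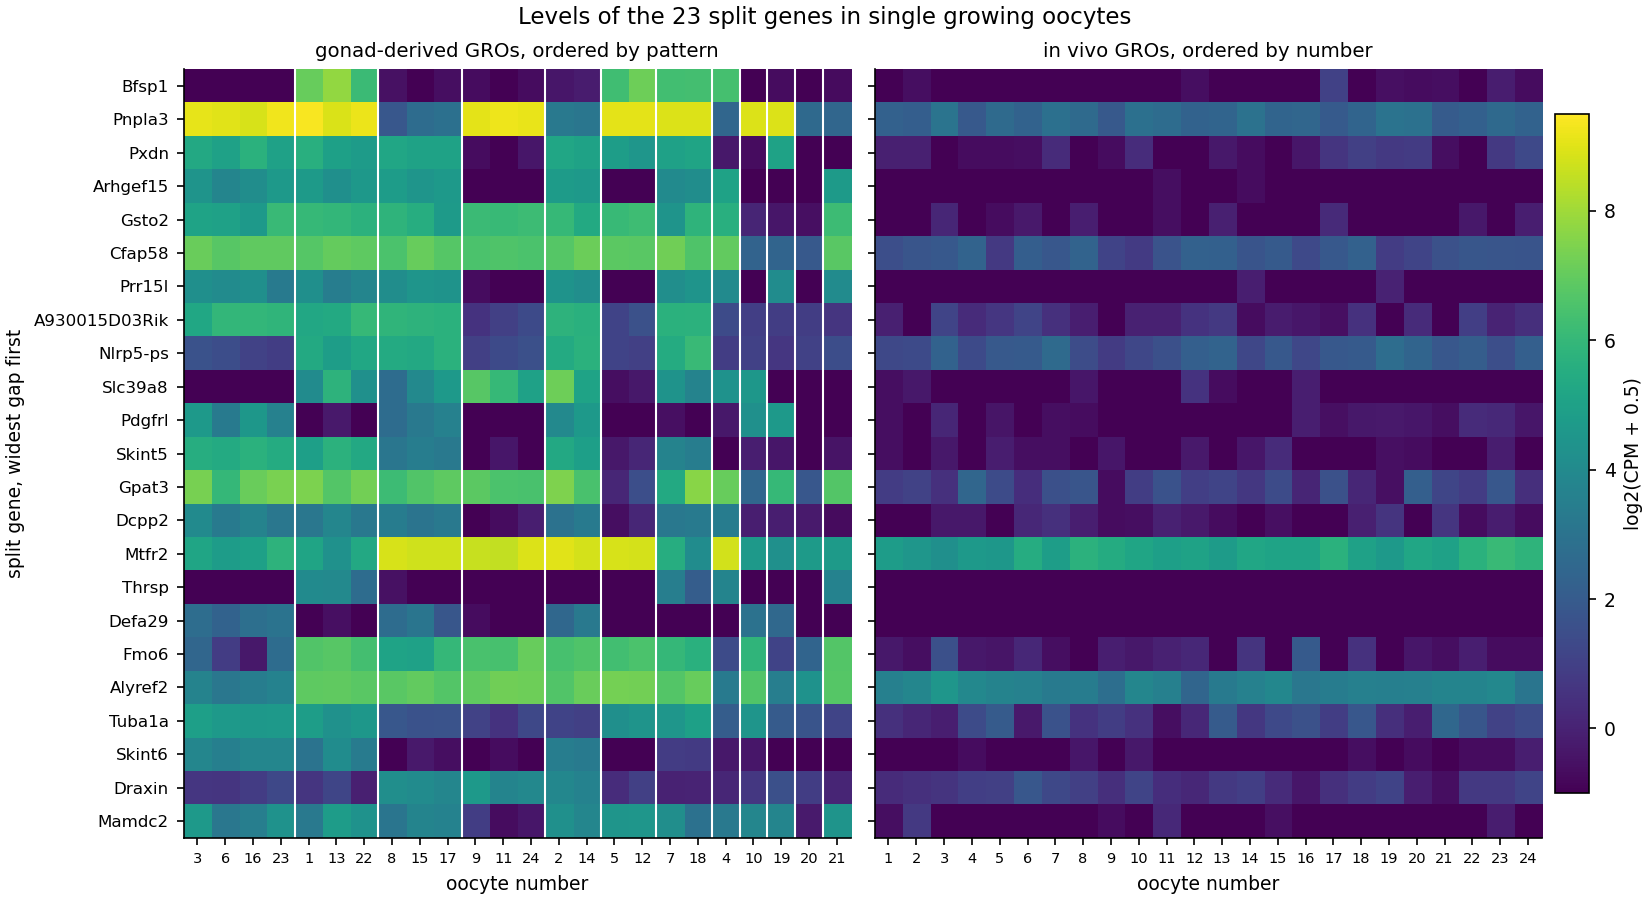
Levels of the 23 split genes (vertical, widest gap at the top) in 24 gonad-derived GROs (left, grouped by identical high and low pattern, white lines between patterns) and 24 in vivo GROs (right, by number), coloured by log2(CPM + 0.5). Gonad-derived GRO 20 is low in all 23 genes, and the others are high in 7 to 19. Every in vivo GRO lies beneath the high set in all 23 genes.

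Oocytes shared whole patterns of high and low over the 23 genes. The 24 gonad-derived GROs showed 12 patterns, and 19 oocytes fell into 7 patterns that several oocytes had in common. Oocytes 3, 6, 16 and 23 were alike on all 23 genes, as were oocytes 1, 13 and 22, oocytes 8, 15 and 17, and oocytes 9, 11 and 24, and there were 3 further pairs. The number of genes on the high side ran from 0 in oocyte 20 to 19, with a median of 15. For each pair of split genes, the oocytes in which both lay on the same side were counted. Over 12 pairs on the same chromosome the median was 19.5 of 24 oocytes, with a lowest value of 11. Over 241 pairs on different chromosomes it was 14, with values from 4 to 24. In 3 of the 12 pairs, Gsto2 with Cfap58, Fmo6 with Alyref2 and Pdgfrl with Defa29, all 24 oocytes were on the same side, and this was so in 1 of the 241, A930015D03Rik on chromosome 17 with Skint5 on chromosome 4. Arhgef15 and Prr15l, 28.0 Mb apart on chromosome 11, matched in 23 oocytes. Arhgef15 also matched in 23 with Dcpp2 on chromosome 17, while Skint6 and Draxin, both on chromosome 4, matched in 11. Pairs share genes and oocytes, so these numbers are descriptions only. They also depend on how many oocytes were high for each gene, which was not taken into account. Of 43 genes that flank the split genes 36 (83.7%) lay within 2-fold, against 93.1% of all genes tested, with a median of 0.02. Higher were 5 of the 43 (11.6% against 4.18%), namely Itln1, Dcpp1, Defa39, Pnpla5 and Fmo4, all but Pnpla5 at no more than 2.15 CPM in gonad-derived GROs. Lower were Kctd14, next to Thrsp, at 0.172 against 3.12 CPM, and Sorcs3, next to Cfap58, at 27.0 against 62.9 CPM.

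The other 63 higher genes showed no empty gap of that size. Npl, an aldolase that cleaves sialic acid, was the most even of those with the highest ratios: it lay between 1.06 and 33.6 CPM (median 14.8) in gonad-derived GROs and between 0 and 1.30 CPM (median 0.158) in vivo, and 23 of 24 oocytes lay above every in vivo GRO. The pooled levels were 13.9 CPM (13.3 to 14.5) and 0.377 CPM (0.288 to 0.484), a ratio of 4.04. Marchf11, a ubiquitin ligase gene, spread from 0.369 to 48.2 CPM (median 7.49) against at most 1.29 CPM in vivo, a ratio of 4.48 with 18 oocytes above every in vivo GRO. Slc4a3, an anion exchanger, spread from 0.451 to 88.7 CPM (median 30.4) against 0.147 to 6.53 CPM (median 1.25), a ratio of 3.94. The groups overlapped for all 3 genes, through gonad-derived GROs at in vivo levels.

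Further genes of this kind had known roles outside the oocyte. Stc2, a secreted glycoprotein that responds to amino acid shortage, lay between 2.72 and 24.3 CPM (median 10.3) against 0 to 4.87 CPM (median 0.904), a ratio of 2.58. Slc16a5, a carrier of the monocarboxylate family, was at 15.8 against 2.08 CPM, and Foxn4, a forkhead factor of retina and spinal cord, at 6.91 against 0.544 CPM. Ldha, which turns pyruvate into lactate, was at 22.1 against 1.08 CPM pooled, but its median was 2.38 CPM against 0.783 CPM and 10 oocytes lay above every in vivo GRO, up to 176 CPM, so that a minority of oocytes carried its ratio of 3.83.

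Genes whose groups did not overlap at all were few and mostly of smaller ratio. Every gonad-derived GRO lay above every in vivo GRO in 13 genes (0.0969% of all tested) and below in 4 (0.0298%), and without in vivo GROs 17 to 24 in 29 and 16. Leaving out gonad-derived GRO 18 alone brought the genes below to 8. Ptpre, a receptor-type tyrosine phosphatase (chr7:135537824-135686294), ran from 157 to 437 CPM (median 248) in the gonad-derived and from 15.4 to 111 CPM (median 47.4) in in vivo GROs, with 251 CPM (249 to 254) against 52.3 CPM (51.2 to 53.4) pooled and a ratio of 2.25. Slc16a11, another monocarboxylate carrier (chr11:70213695-70216414), ran from 6.59 to 24.6 CPM against 0.426 to 6.28 CPM, a ratio of 2.19. Ccdc28a, a coiled-coil gene of little known role (chr10:18213676-18235805), ran from 30.1 to 109 CPM against 7.83 to 20.3 CPM, a ratio of 2.03. These 3 were 4-fold higher as well, and their gonad-derived GROs formed a single cloud rather than a high and a low set. The other 10 had ratios between 0.50 and 1.27 and included Dhx57, a helicase gene, at 125 to 216 against 52.0 to 121 CPM, Ppme1, which demethylates protein phosphatase 2A, at 263 to 447 against 83.2 to 258 CPM, and Polb, the DNA polymerase of base excision repair, at 108 to 152 against 72.9 to 104 CPM.

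**Figure D4:**
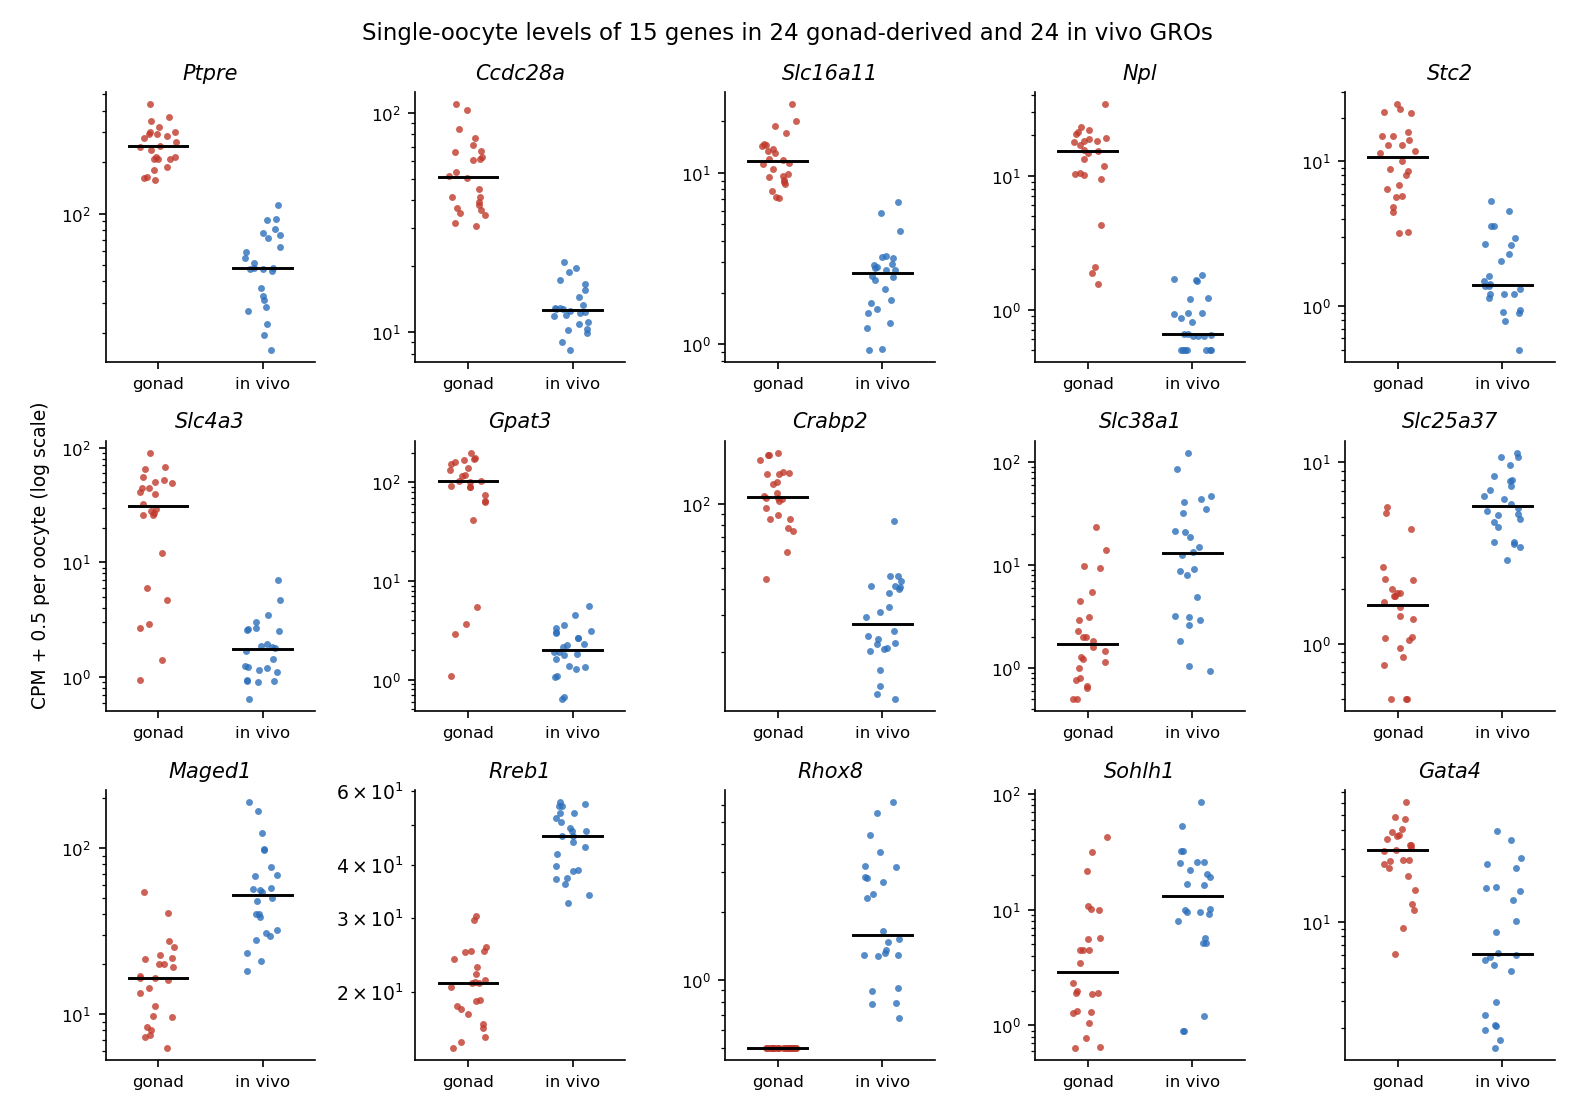
CPM + 0.5 per oocyte (log scale, with its own range in each panel) of 15 genes in 24 gonad-derived GROs (red) and 24 in vivo GROs (blue), with a black bar at the median. Ptpre, Ccdc28a, Slc16a11, Rreb1 and Rhox8 show no overlap between the groups, while Gpat3 has 4 gonad-derived GROs at in vivo levels.

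Lower genes were fewer and more often tied to in vivo GROs 17 to 24. Of the 7 genes past 4-fold, 4 stayed past it without the 8 oocytes, among them Slc38a1, Kctd14 and Rhox8, and without gonad-derived GRO 7 alone 17 genes passed it. In 3 of the 7, Rhox8 among them, under 3 gonad-derived GROs were above 1 CPM, so that other GROs brought them past the filter. Rhox8, a homeobox gene of the X-linked reproductive cluster (chrX:37874780-37890766), had no read in any of the 24 gonad-derived GROs and lay between 0.18 and 5.64 CPM in every in vivo GRO, at least 92.5-fold lower against the floor of 3 reads over the group. Slc38a1, a glutamine carrier, lay between 0 and 22.8 CPM (median 1.22) against 0.434 to 121 CPM (median 12.4), and the groups overlapped. Maged2, a MAGE family gene of the X chromosome, went from -2.12 to -1.85 without the 8 oocytes, while Zswim6 went from -2.14 to -0.70 and Slc45a4, a solute carrier, from -2.07 to -0.89.

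Below the 4-fold rule, Maged1, which is related to Maged2 and also X-linked, was at 17.8 against 62.6 CPM, a ratio of -1.78 (-1.67 without the 8 oocytes), and 14 gonad-derived GROs lay below every in vivo GRO. Slc25a37, the mitochondrial iron importer mitoferrin, was at 1.44 against 5.88 CPM (-1.72, and -1.65 without), with 21 gonad-derived GROs below every in vivo GRO. Uaca, Atg4d, Zfp945 and Capn5 kept ratios between -1.81 and -1.52 without the 8 oocytes, whereas Smoc1, Tead1 and Fzd5 went from -1.92, -1.71 and -1.74 to -0.82, -0.81 and -1.09. Besides Rhox8, the groups did not overlap for Rreb1, a zinc finger factor of the Ras pathway (14.2 to 29.7 against 32 to 56 CPM, ratio -1.10 with and without the 8 oocytes), for 2210016F16Rik (14.4 to 47.1 against 51.9 to 85 CPM) and for Canx, a chaperone of the endoplasmic reticulum (208 to 291 against 294 to 443 CPM, ratio -0.59).

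Lists of genes of known function were read against the background of 4.18% higher and 2.70% lower at 2-fold. All 19 maternal-effect genes, 18 DNA methylation genes, 22 cholesterol synthesis genes, 60 ribosomal protein genes, 65 subunits of oxidative phosphorylation, 17 follicle activation genes, 16 p53 and cell death genes and 9 steroid receptor genes measured lay within 2-fold. Of 39 Polycomb genes 36 lay within 2-fold, with Aebp2, a cofactor of the H3K27 methyltransferase, higher (53 against 25.8 CPM) and 2 lower, both of which came within 2-fold without in vivo GROs 17 to 24, such as Bend3 with -0.38, while the higher genes then numbered 2.

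Developmental transcription factors gave 12 higher and 5 lower genes of 83 (14.5% and 6.02%), and 13 and 1 without in vivo GROs 17 to 24. Beside Foxn4 the higher ones included Otx1, a forebrain homeobox gene, at 33.7 to 371 CPM (median 208) against 4.91 to 198 CPM (median 43.9), and Hoxd8 at 2.05 against 0.210 CPM. Among the 12 were Gata4 and Emx2, which mark somatic cells of the fetal gonad. Gata4 lay between 5.62 and 59.8 CPM against 0.991 to 38.4 CPM, and Emx2 was at 15.9 against 7.46 CPM pooled. Of 8 fetal gonad markers 6 passed the filter on low values and 2 of these were thus higher, the list summed to between 17.4 and 91.8 CPM in gonad-derived and between 2.31 and 53.2 CPM in in vivo GROs (6.01 to 44.3 CPM in GROs 1 to 16), and its median ratio was -0.006. Lgr5 had no read in either group. Wnt4 was at 0.172 against 0.365 CPM, Rspo1 at 0.172 against 0.742 CPM, Wt1 at 0.197 against 0.729 CPM and Lhx9 at 0.0637 against 0.0309 CPM, and without in vivo GROs 17 to 24 Rspo1 was past 2-fold lower, at -1.08. The part of such cells in the higher developmental genes was not tested.

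Retinoid genes gave 3 higher and 2 lower of 17. Crabp2, which carries retinoic acid to its nuclear receptor, lay between 43.8 and 174 CPM (median 108) against 11.6 to 82.7 CPM (median 26.8), a ratio of 1.87 with 20 oocytes above every in vivo GRO. Crabp1 was at 6.25 against 2.28 CPM and the receptor gene Rarb at 2.45 against 0.735 CPM. The receptor genes Rara, at 15.8 against 34.9 CPM, and Rxra, at 8.46 against 17.6 CPM, were lower, and both came within 2-fold without the 8 oocytes, at -0.97 and -0.34.

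Stress and energy genes did not lie on 1 side. Of 16 heat shock and unfolded protein genes none was higher and 3 were lower, with a median of -0.60 over the list against -0.03 over all genes (-0.52 against -0.005 without the 8 oocytes). The 3 lower ones were Hspa1a, Hspa1b and Hspb1, of which only Hspb1 stayed past 2-fold without the 8 oocytes, at 3.66 against 10.5 CPM pooled. Amino acid response genes gave 3 higher of 23 (Stc2, Vldlr and Cth), or 4 without the 8 oocytes, and glycolysis and hypoxia genes 3 higher of 24 (Ldha, Aldoc and Tpi1). Tpi1, the triose phosphate isomerase, ran from 92.6 to 496 CPM (median 221) against 85.8 to 133 CPM (median 111), and 22 oocytes lay above every in vivo GRO. In the glutathione list, by contrast with Gsto2, 31 of 34 genes lay within 2-fold and Gstm1 (0.618 against 3.06 CPM) and Gstm2 (0.318 against 2.41 CPM) were lower.

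The naming rule lists 10 genes by symbol because the study's text names them for this culture step, from the same oocytes. Of these 2 were at least 4-fold higher, against 0.633% of all genes tested. A high share is built into that choice and is no result about these genes. Psd2, an exchange factor for the GTPase Arf6, lay between 1.64 and 30.4 CPM (median 12.6) against 0 to 6.43 CPM (median 1.76), a ratio of 2.31. Lgi2, a secreted protein of nerve cells, was at 5.77 against 0.810 CPM, a ratio of 2.26. Pla2g12b, a secreted phospholipase family member, was at 4.50 against 0.952 CPM, and Cxcl13, the chemokine that draws B cells, at 2.69 against 0.513 CPM, with ratios of 1.78 and 1.66. Aldh1a1, which makes retinoic acid from retinal, was at 0.503 against 1.43 CPM, within 2-fold on the scale used, and Bend3 is described with the Polycomb genes. Too low for the filter were the chemokine genes Ccl1 (31 reads over all gonad-derived against 13 over all in vivo GROs), Ccl4 (17 against 1 read) and Cx3cl1 (24 against 2 reads), and likewise Adh1 (10 against 25 reads).

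Some families gave shares of higher genes above the 4.18% of all genes. Flavin monooxygenases and cytochrome P450 enzymes of families 1 to 4 gave 7 higher of 27 (25.9%) and 0 lower (7 and 1 without the 8 oocytes), among them Fmo6 and Cyp2c29, at 9.36 to 216 CPM (median 71.9) against 9.25 to 45.8 CPM (median 20.3). Contactins and synaptic adhesion genes gave 4 higher of 21 (19.0%), which were Lgi2, Cntnap3, Lrrtm2 and Cntn6, and 1 lower, Lrfn4, which came within 2-fold without the 8 oocytes. Olfactory receptors gave 7 of 43 and 0 lower, led by Olfr288 at 17.2 against 3.61 CPM, and their counts are uncertain because of near copies. Cadherins and protocadherins gave 8 higher of 43 and 0 lower, 6 without in vivo GROs 17 to 24, including Cdh8 at 23.4 against 9.74 CPM and Cdh15 at 3.23 against 0.964 CPM. Their median of 0.73 counts 1 locus many times, since genes of the alpha protocadherin cluster share 3′ exons, and Pcdha1, Pcdha3, Pcdha4 and Pcdhac1 were listed at the same 3.05 and 1.28 CPM. Solute carriers other than amino acid carriers gave 17 higher and 5 lower of 180 (9.44% and 2.78%), and 14 and 3 without in vivo GROs 17 to 24. Imprinted genes gave 3 higher of 23, namely Zrsr1, Slc22a18 and the long noncoding RNA Meg3 (3.92 against 1.62 CPM). For Zrsr1, which lies within an intron of Commd1, reads cannot be assigned with certainty.

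The promoters of the higher genes were poorer in CpG. A window was given for 65 of the 85, and 26 of these (40.0%) were CpG-rich, with an observed over expected CpG ratio of at least 0.6 and at least 50% GC, against 61.7% over all tested genes with a window. Among the genes at least 2-fold higher the share was 31.5%, and among those at least 2-fold lower 66.7%, or 52.2% when these were chosen without in vivo GROs 17 to 24. GC boxes were in 40.0% of the 65 windows against 59.3% of all, where the median GC content was 56.3% against 60%. The antioxidant response core was in 9.23% against 14.5%, the cAMP response element in 4.62% against 2.98%, the TATA box in 9.23% against 8.18%, the nuclear receptor core in 13.8% against 12.6%, the homeodomain core in 7.69% against 8.11% and the amino acid response element in 3.08% against 2.61%, and these shares of the 65 rest on 2 to 9 windows each. The filter on low values favours genes that are low in vivo among the higher ones, and CpG content was not matched to level.

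Fully grown oocytes (FGOs) of the series share no library with the GROs and show whether the same genes differed later. The gonad-derived FGOs had passed through IVD and then growth in culture, the in vivo FGOs had no culture, and the 6 dpp FGOs had entered culture in follicles of mice 6 days after birth. Of the 85 genes, 44 exceeded the level of in vivo FGOs by at least 2-fold in gonad-derived FGOs (2.06% of all tested), 22 by at least 4-fold (0.320%) and 0 were at least 2-fold lower (3.14%), with a median of 1.13 against -0.01 over all genes. Against 6 dpp FGOs 49 were at least 2-fold higher (1.56%) and 0 lower (0.752%). Both comparisons share the gonad-derived FGOs. Split genes made up 20 of the 44, out of 22, and the other genes 24, out of 63. Of the 362 genes at least 2-fold lower, 57 were at least 2-fold lower and 5 higher in the same comparison of FGOs, and of the 193 called without in vivo GROs 17 to 24, 36 were lower and 8 higher.

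**Figure D5:**
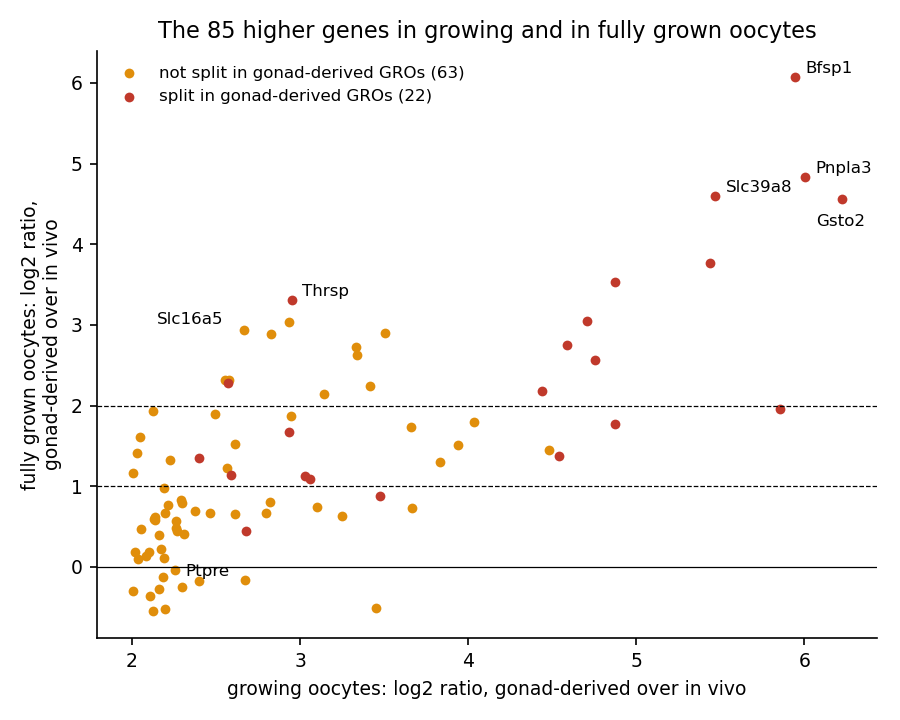
Log2 ratios (0.5 CPM added) of gonad-derived over in vivo oocytes for the 85 genes, in growing oocytes (horizontal) and in fully grown oocytes (vertical), with red points for 22 split genes, orange points for 63 others, a solid line at 0 and dashed lines at 2-fold and 4-fold. No gene lies 2-fold or more below 0 in fully grown oocytes, and Bfsp1, Pnpla3, Slc39a8 and Gsto2 lie highest.

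The split was seen again in FGOs, in fewer oocytes. Of the 23 genes, 13 were split in gonad-derived FGOs by the same rule and 0 in in vivo, 6 dpp or iPSC-derived FGOs. Over all genes tested 20 were split in gonad-derived FGOs (0.149%), 3 in 6 dpp, 0 in in vivo and 1 in iPSC-derived FGOs. Bfsp1 lay between 88.7 and 245 CPM in 5 gonad-derived FGOs and at no more than 0.290 CPM in the other 19, against at most 0.271 CPM in in vivo FGOs. Pnpla3 lay between 561 and 1005 CPM in 5 and between 1.84 and 6.19 CPM in 19. Gsto2 lay between 24.3 and 87.5 CPM in 7 and at no more than 0.669 CPM in 17. In all 13 genes the high set lay above every in vivo and every 6 dpp FGO. The high FGOs were the same few: 8 of the 24, numbered 10 and 17 to 23, were high for any of the 13 genes, and the other 16 were high for none. Fmo6 and Alyref2 were again high in the same oocytes, FGOs 17, 18, 22 and 23, and Cfap58 was high in 6 of the 7 FGOs in which Gsto2 was. The pooled ratios of these genes in FGOs therefore describe 3 to 7 oocytes of 24.

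For several higher genes that were not split, the level of gonad-derived GROs lay nearer to that of fully grown oocytes in vivo than the level of in vivo GROs did. Side by side, Ptpre was at 52.3 CPM in in vivo GROs, 251 CPM in gonad-derived GROs, 260 CPM in in vivo FGOs and 253 CPM in gonad-derived FGOs. Crabp2 was in the same order at 30.7, 113, 144 and 91.6 CPM. For Slc6a15, a carrier of neutral amino acids, the levels were 3.32, 19.6, 136 and 121 CPM, and for Gfra1, a receptor of the neurotrophic factor GDNF, 6.56, 31.6, 101 and 93.0 CPM. Selp, the adhesion molecule P-selectin, stood at 2.35, 12.7, 54.5 and 92.8 CPM. For these 5 examples the level of gonad-derived GROs lay between those of in vivo GROs and FGOs. Other higher genes that were not split exceeded the level of in vivo FGOs. In in vivo GROs, gonad-derived GROs and in vivo FGOs, Psd2 stood at 2.22, 13.0 and 8.80 CPM. In the same order Lgi2 stood at 0.810, 5.77 and 3.33 CPM and Slc16a11 at 2.19, 11.8 and 6.14 CPM. The 5 examples therefore do not describe the higher genes as a set. Split genes gave another picture, with Gsto2 at 0.142, 47.4, 0.193 and 15.9 CPM and Bfsp1 at 0.111, 37.2, 0.0207 and 34.4 CPM, so that neither in vivo stage had them. Gfra1 and Selp were chosen after their values were seen, and since growth in vivo shares the in vivo GROs with the main comparison, the 4 levels are given with no further count.

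The iPSC-derived GROs, which shared the same differentiation in culture, had some of these genes above the low set of gonad-derived GROs in every oocyte and others below the high set. Pnpla3 ran from 494 to 925 CPM in the 23 iPSC-derived GROs, Mtfr2 from 320 to 643 CPM and Bfsp1 from 29.4 to 339 CPM, where gonad-derived GROs were split. Gsto2 was at most 0.577 CPM, Fmo6 at most 3.29 CPM and Cfap58 at most 10.4 CPM there. Of the 23 split genes, 13 had all iPSC-derived GROs above the low set, 9 had them all below the high set, and in the last 1, Skint6, they lay on both sides. Among genes that were not split, Npl was at 1.09 CPM and Slc4a3 at 49.0 CPM pooled in iPSC-derived GROs, against 13.9 and 31.2 CPM in gonad-derived GROs. These oocytes came from 1 line, BVSC-iPSC. Growth in culture could be read in them without the in vivo GROs, a comparison that was added after the data were seen. Of the 85 genes, 19 were at least 2-fold higher (5.89% of all tested) and 12 at least 2-fold lower (15.0%) in iPSC-derived FGOs than in iPSC-derived GROs. Of the 362 lower genes 11 were higher and 155 lower, and of the 193 called without in vivo GROs 17 to 24 the numbers were 7 and 83.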

How the data were processed

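Libraries were made from individual mouse oocytes with Smart-seq2 and read from a single end. The authors deposited 1 table of raw read counts per gene and oocyte, without normalization. Per the submitters' processing notes and the study's methods, reads were aligned with STAR to GRCm38 (mm10) with spike-in sequences, reads with several placements were put at 1 random position, and QuasR counted uniquely mapped exonic reads of 1 randomly chosen transcript per gene. The version of QuasR and the use of strand are not given in the sources used here, so overlapping genes and near-identical copies are uncertain. Random choice of a transcript also means that a gene spliced differently in 2 groups can gain or lose counts.

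Of 21950 genes, 21907 matched the RefSeq table of GRCm38.p6, and the other 43 stayed in the totals. Counts were summed over the 24 oocytes of a group and divided by the summed totals. Ratios are log2 of pooled CPM + 0.5. Genes entered with CPM above 1 in at least 3 of all growing oocytes, which gave 13422. The study fitted a model over oocytes, but since the labels name no animal, embryo or culture, each group was taken as 1 sample and no p-value is given. Oocyte diameter, which the study measured, was not analysed here, and a few genes within the naming rule are not reported here.

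For each direction the text names up to 15 genes of largest ratio with at least 5 CPM in the higher group that stay past 2-fold in the ratio of medians and with any oocyte left out, up to 10 genes of widest empty gap between groups, up to 4 members of each list past 2-fold, and genes named by the study for this step. Genes outside this rule were named after their values were seen. Members and gene lists were chosen with earlier results of these data known. Alternatives concerned pseudocount, scaling (edgeR 4.0.16 in R 4.3.3), averaging, filter and left-out oocytes, including in vivo GROs 17 to 24 together, which was added after the data were seen. The computations, in Python 3.11.15 with pandas 2.3.3, were tested on simulated data.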

Additional observations from a re-analysis of the deposited data

How the results depend on the processing

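With a pseudocount of 0.1 CPM, 176 genes were at least 4-fold higher and 34 lower, and 880 and 648 at 2-fold. With 2 CPM the numbers were 35, 1, 299 and 135. The coefficient of an edgeR fit gave 268, 66, 1002 and 735. A mean of log2 values left 3 genes at least 4-fold lower, and a floor of 5 CPM in the higher group left 4 genes at least 4-fold lower and 342 genes at least 2-fold higher. These settings differ in the weight they give to genes of low level. Of the 85 higher genes, 85 were past 4-fold with 0.1 CPM, 35 with 2 CPM, 64 by the mean of log2 values and 69 by medians. Other scaling moved the 4-fold numbers to at most 87 higher and 7 lower. Without in vivo GROs 17 to 24, an alternative chosen after the data were seen, 193 genes were at least 2-fold lower, and groups did not overlap in 29 genes higher and 16 lower. Leaving out each oocyte in turn gave 81 to 94 higher and 5 to 17 lower genes at 4-fold, 541 to 602 and 309 to 405 at 2-fold, 13 to 17 and 4 to 8 without overlap, and 21 to 26 split genes. The 17 came without gonad-derived GRO 7 and the 8 without gonad-derived GRO 18, and the cause was not tested. A gap of 2-fold gave 94 split genes. At a 2-fold rule 44 in place of 22 of the 85 genes were higher in fully grown oocytes, and at an observed over expected CpG ratio of at least 0.75 the share of CpG-rich promoters was 26.2% against 44.8% over all tested genes. Nlrp5-ps reversed to -0.37 by medians. Slc6a8 ran from -1.56 to 0.25 as single oocytes were left out and reversed without in vivo GRO 3. No paired analysis was possible because replicate numbers only name oocytes and no test was made. The planned count of the 85 genes whose level in vivo was 2-fold or more higher after growth was not run, since it shares the in vivo GROs with the comparison itself.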
